A study of Homo sapiens with 6 samples.

Results

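The genes described here are those of the SWI/SNF chromatin remodelling complexes and the related SNF2, CHD and AT-rich interaction domain (ARID) families, as measured by RNA-seq in LNCaP prostate cancer cells. Members were the genes whose symbols begin with SMARCA to SMARCE or ARID1 to ARID5, or are CHD1 to CHD9, PBRM1 or DPF1 to DPF3, and whose mean expression was at least 0.5 CPM (counts scaled to the same library total in every sample) over all 6 samples. Of 37 such symbols among 29744 genes listed, 35 met the threshold, and these are 35 of the 13373 genes that met it in all. *DPF3*, with a mean of 0.588 CPM, lay just inside the threshold. *ARID3C* (0.21 CPM) and the antisense gene *SMARCA5-AS1* (0.0567 CPM) lay outside it and were not tested.

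LNCaP is a luminal-type line from a lymph node metastasis of prostate cancer. The cells were exposed for 4 h to 250 nM CDKI-73, an inhibitor of the transcriptional kinase CDK9, or to the vehicle DMSO, with 3 biological replicates of each, and stranded single-end reads were taken from their polyadenylated RNA. Both groups were the same unmodified line grown in RPMI-1640 with serum, so every comparison is of CDKI-73 with DMSO in 1 cell line at 1 dose and 1 time. The steps between CPM values put the counted reads at about 52875800 to 60923628 with DMSO and about 46084313 to 51967160 with CDKI-73, so the CDKI-73 samples were the shallower ones.

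The 5 LNCaP markers reported (*KLK3*, *KLK2*, *FOLH1*, *HOXB13* and *TMPRSS2*) were all expressed at 1 CPM or more, with a summed level of 4950 to 5330 CPM in DMSO and 5060 to 5540 CPM in CDKI-73. Most of that sum was *KLK3* and *FOLH1*, and within it *TMPRSS2* fell from 765 to 321 CPM (log2 fold change -1.26). Of the immune markers, 0 of 3 reached 1 CPM and their sum stayed at or below 0.15 CPM in every sample. Of the stromal markers 2 of 4 reached 1 CPM (*COL1A1* and *ACTA2*, with *COL1A2* at 0), and their sum was 11.8 to 12.5 CPM in DMSO and 16.9 to 18.4 CPM in CDKI-73, a shift whose part in the results was not tested. Endothelial markers (1 of 3, *VWF*) summed to 10 to 11.9 CPM and basal markers (1 of 3, *KRT14*) to 0.51 to 1.31 CPM. CDKI-73 replicate 3 stood further from the other CDKI-73 samples (median absolute log2 difference 0.15 and 0.16) than the remaining samples of a group stood from each other (0.061 to 0.093), and the members whose call turns on it are given with and without it.

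Chromatin remodellers use ATP to slide, eject or exchange nucleosomes, and so set how accessible promoters and enhancers are to transcription factors. SWI/SNF complexes share an ATPase, SMARCA4 (BRG1) or SMARCA2 (BRM), and SMARCC and SMARCD subunits, with SMARCB1 and SMARCE1 in the core of the BAF and PBAF assemblies, while exchangeable subunits define each assembly: ARID1A or ARID1B with a DPF protein in the canonical BAF complex, ARID2 with PBRM1 in PBAF. CHD and ISWI enzymes are separate remodellers built on the same class of motor, and the ARID3, ARID4 and ARID5 proteins share the DNA-binding ARID fold without belonging to SWI/SNF.

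With CDKI-73, 22 of the 35 remodeler genes fell, 4 rose and 9 did not pass (limma, adjusted p no higher than 0.05). Among all 13373 genes tested, 48.2% were lower and 24.2% higher, against 62.9% and 11.4% of the members. A fall of at least 2-fold was called for 13 members (37.1%; 22.3% of all genes) and a rise of at least 2-fold for 0 members (1.11% of all genes). The median log2 fold change of the members was -0.73, against -0.18 over all genes tested, and single members ranged from -3.75 for *CHD1* to 0.58 for *SMARCD3*. Without any overlap between the groups, 22 members were lower with CDKI-73 (50.0% of all genes) and 6 higher (25.9% of all genes), and in 7 the groups overlapped.

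The counts differed between kinds of subunit (plot of changes by role), although that difference was not tested. Of the 7 assembly-specific SWI/SNF subunits among the members, 6 fell, 5 of them by at least 2-fold. Without *DPF3*, which met the expression threshold through its DMSO samples, these counts were 5 and 4 of 6. All 6 members that are ARID genes outside SWI/SNF fell, 5 of them by at least 2-fold. Of the 9 ATPases and core subunits of SWI/SNF, 1 fell, 3 rose and 5 did not pass, with 0 lower by at least 2-fold. Of the 9 CHD genes, 6 fell and 1 rose, with 2 lower by at least 2-fold (22.2%, near the 22.3% of all genes). CPM values give each gene's share of a sample's reads, and in bulk RNA fewer cells carrying a transcript and less transcript per cell cannot be told apart. The direction given for genes with small changes therefore depends on the scaling. When samples were scaled to the reference genes *GAPDH*, *HPRT1* and *ACTB*, which moves the median of all genes by -0.40, 29 members were lower and 0 higher, and when they were scaled to the upper quartile (0.27) 21 were lower and 12 higher. Of the 7 assembly-specific subunits, 6 were lower by at least 2-fold scaled to the reference genes and 3 scaled to the upper quartile. The count was 4 scaled to the median of gene ratios, and 3 scaled to a trimmed mean of M-values or at a pseudocount of 1 CPM.

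**Figure D1:**
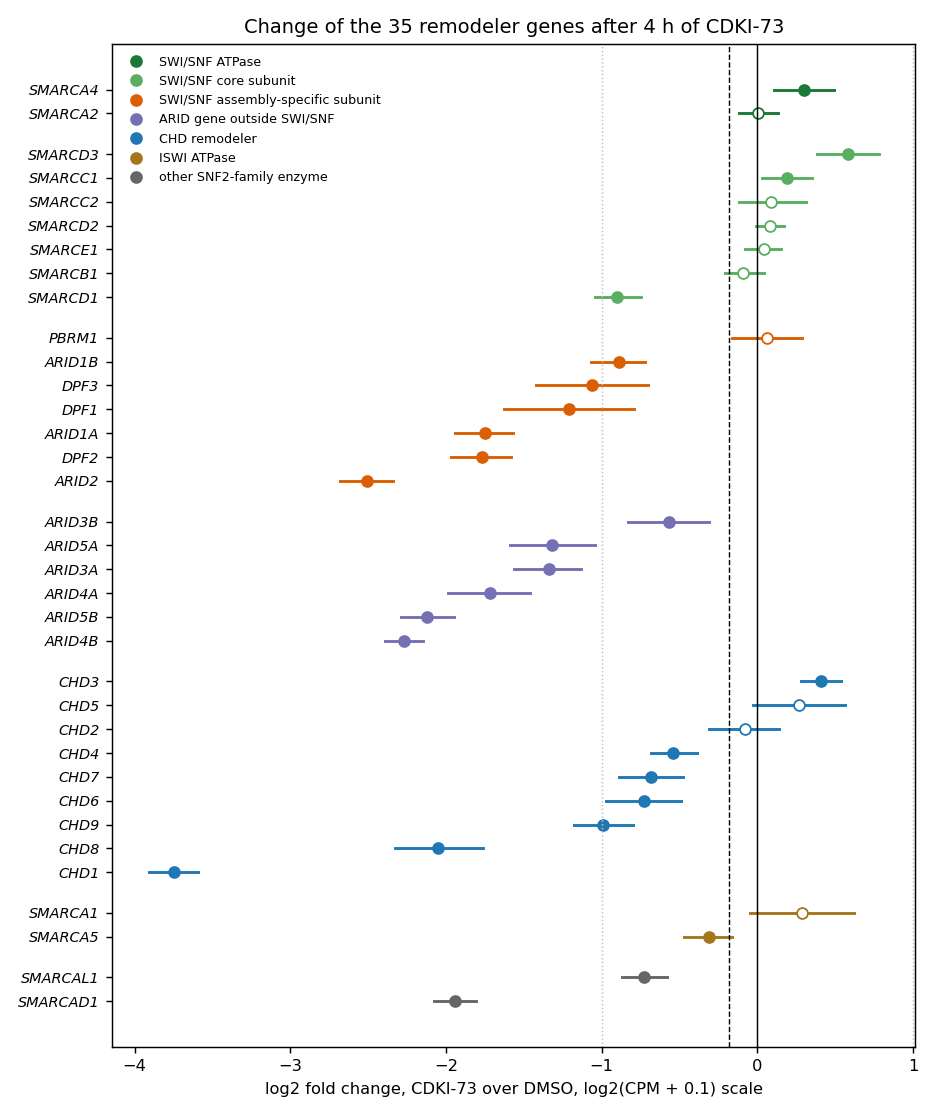
Log2 fold change of each of the 35 remodeler genes, CDKI-73 minus DMSO, on log2(CPM + 0.1) with 95% intervals from limma (3 samples a group), ordered by role. Filled circles passed an adjusted p of 0.05 and open circles did not, a dashed line marks the median over all tested genes (-0.18) and the dotted lines mark 2-fold. The assembly-specific subunits and ARID genes lie mostly left of the 2-fold line, the SWI/SNF ATPases and core subunits other than *SMARCD1* and *SMARCD3* lie near 0, and *CHD1* lies furthest left at -3.75.

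The promoters of 3 members that fell by more than 3-fold (*CHD1*, *ARID1A* and *DPF2*) and of 2 that did not fall (*SMARCA4* and *SMARCD2*) are shown as examples, to set their sequence beside the contrast in response. Each runs from 250 bases before to 50 bases after the gene start in RefSeq (GRCh38.p14), read 5′ to 3′ on the strand of the gene. The start site used in LNCaP cells was not measured. Capitals mark matches on either strand to the motifs searched, which were the TATA box (letters TATAAA), the CCAAT box (the letters of its name), the GC box (letters GGGCGG), the E-box (letters CACGTG), the core of ETS sites (letters CGGAAG) and the core of YY1 sites (letters ATGGCG). Neighbouring matches can share bases, as an ETS core and a GC box do in *SMARCA4*. The windows are chr5:98928958-98929257 (minus strand) for *CHD1*, chr1:26695765-26696064 (plus) for *ARID1A*, chr11:65333602-65333901 (plus) for *DPF2*, chr19:10960780-10961079 (plus) for *SMARCA4* and chr17:63842636-63842935 (minus) for *SMARCD2*.
CHD1: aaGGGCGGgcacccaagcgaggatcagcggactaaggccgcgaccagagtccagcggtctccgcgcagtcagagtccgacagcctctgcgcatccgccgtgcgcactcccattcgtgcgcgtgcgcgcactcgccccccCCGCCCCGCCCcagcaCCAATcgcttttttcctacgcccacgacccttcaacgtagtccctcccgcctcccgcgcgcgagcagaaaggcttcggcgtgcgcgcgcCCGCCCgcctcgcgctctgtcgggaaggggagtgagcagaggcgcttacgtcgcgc
ARID1A: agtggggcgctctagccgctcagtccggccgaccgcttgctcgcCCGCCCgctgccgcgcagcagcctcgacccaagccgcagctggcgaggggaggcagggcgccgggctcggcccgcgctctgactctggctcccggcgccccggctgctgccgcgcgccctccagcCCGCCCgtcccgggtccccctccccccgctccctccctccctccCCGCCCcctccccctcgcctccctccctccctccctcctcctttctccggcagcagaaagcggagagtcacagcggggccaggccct
DPF2: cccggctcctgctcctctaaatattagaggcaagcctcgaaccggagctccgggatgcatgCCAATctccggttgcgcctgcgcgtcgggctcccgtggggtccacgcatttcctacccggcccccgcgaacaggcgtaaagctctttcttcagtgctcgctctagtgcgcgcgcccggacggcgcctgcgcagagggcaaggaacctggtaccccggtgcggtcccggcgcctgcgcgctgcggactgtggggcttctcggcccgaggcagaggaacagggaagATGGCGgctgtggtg
SMARCA4: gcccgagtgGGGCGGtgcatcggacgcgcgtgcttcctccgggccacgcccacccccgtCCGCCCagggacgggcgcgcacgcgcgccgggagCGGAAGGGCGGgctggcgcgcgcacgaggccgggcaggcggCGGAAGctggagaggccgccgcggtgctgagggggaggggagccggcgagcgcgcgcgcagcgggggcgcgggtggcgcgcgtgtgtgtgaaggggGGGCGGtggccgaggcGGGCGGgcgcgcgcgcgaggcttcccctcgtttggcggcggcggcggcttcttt
SMARCD2: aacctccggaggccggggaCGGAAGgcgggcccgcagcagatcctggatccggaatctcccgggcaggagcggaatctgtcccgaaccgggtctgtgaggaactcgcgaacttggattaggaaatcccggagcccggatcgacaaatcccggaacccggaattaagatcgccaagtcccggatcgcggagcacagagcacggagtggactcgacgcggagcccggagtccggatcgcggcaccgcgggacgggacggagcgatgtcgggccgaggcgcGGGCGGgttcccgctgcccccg

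All 5 windows are rich in G and C, from 67.7% in *DPF2* to 81.3% in *SMARCA4*. *CHD1* and *DPF2* hold a CCAAT box and *SMARCA4* and *SMARCD2* hold the ETS core, while *ARID1A* holds GC boxes only. A promoter was found for 27 of the 35 members, *ARID2* not among them. The CCAAT box was present in 7 of 11 promoters of members lower by at least 2-fold (63.6%) and 4 of 16 of the others (25.0%), against 35.7% of all 27305 promoters and 37.3% of those of tested genes. The ETS core was present in 0 of those 11 and in 7 of the other 16 (43.8%), against 19.9% of all promoters and 33.6% of those of tested genes. The 7 were *SMARCA2*, *SMARCA4*, *SMARCE1*, *SMARCD2* and *SMARCA1*, and also *CHD4* and *SMARCA5*, which passed as lower. *SMARCB1*, *SMARCD3*, *PBRM1*, *CHD2* and *CHD3* did not pass as lower, and their windows hold no ETS core. The GC box was found in 7 of 11 and 12 of 16 (75.0%), against 44.6% of all promoters and 70.3% of those of tested genes. For the remaining motifs, the TATA box was found in 1 of 11 and 0 of 16, the E-box in 0 of 11 and 2 of 16, and the YY1 core in 3 of 11 and 2 of 16, against 12%, 7.43% and 11% of all promoters and 5.2%, 10.3% and 18.7% of those of tested genes. These letter matches describe the windows only, and no test was made of them.

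Of the ATPases of SWI/SNF, 1 rose and the other did not pass the test. *SMARCA4*, which encodes BRG1, was at 158.08, 170.93 and 198.39 CPM in the DMSO samples and 218.68, 221.94 and 205.97 CPM in the CDKI-73 samples. Every CDKI-73 sample was above every DMSO sample, and the log2 fold change was 0.30 (SE 0.081, adjusted p = 0.0098 in limma), although scaling to the reference genes turned it to -0.11. *SMARCA2*, its alternative, was at 65.00, 70.09 and 70.71 CPM in DMSO and 70.49, 70.77 and 65.10 CPM in CDKI-73. The groups overlapped, and the change was 0.0039 (SE 0.056, 95% interval -0.12 to 0.13, adjusted p = 0.95 in limma).

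Of the 7 core subunits, 1 fell, 2 rose and 4 did not pass. *SMARCB1*, the core subunit lost in rhabdoid tumours, was at 64.44, 66.02 and 63.87 CPM in DMSO and 62.15, 57.06 and 63.97 CPM in CDKI-73. The groups overlapped at a change of -0.09 (SE 0.054, 95% interval -0.21 to 0.04, adjusted p = 0.18 in limma), which without CDKI-73 replicate 3 was -0.12 at an adjusted p of 0.042 in limma and which turned to 0.11 to 0.19 under 3 other scalings and was -0.49 (adjusted p = 3.9e-05 in limma) scaled to the reference genes. The scaffold gene *SMARCC1* was at 183.23, 193.84 and 198.96 CPM in DMSO and 227.91, 233.27 and 197.27 CPM in CDKI-73. Although the groups overlapped, it rose by a log2 fold change of 0.19 (SE 0.069, adjusted p = 0.037 in limma). Over 17 alternative settings its adjusted p ran from 0.00019 to 0.12, 8 of them lost the call, and scaling to the reference genes reversed it to -0.22.

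Its paralog *SMARCC2* went from 99.8 ± 8.85 to 107 ± 11.5 CPM (mean ± SD, n = 3, as for all such values below), a change of 0.09 that did not pass, but reached 0.19 at an adjusted p of 0.02 in limma without CDKI-73 replicate 3. *SMARCE1*, which carries a DNA-bending HMG domain, was at 240 ± 9.12 and 246 ± 11.4 CPM, a change of 0.04 that did not pass. The SMARCD subunits, which are alternatives for 1 position in the complex, moved apart. *SMARCD1* fell from 31.6 ± 0.446 to 17 ± 1.12 CPM (log2 fold change -0.90), and *SMARCD2*, the most highly expressed member per kilobase of transcript, was at 159 ± 2.23 and 168 ± 1.38 CPM (0.08, adjusted p = 0.089 in limma) with no overlap. *SMARCD3*, the form known from heart and muscle, was low at 5.70, 5.05 and 5.90 CPM in DMSO and stood at 8.08, 8.04 and 8.90 CPM in CDKI-73. All CDKI-73 samples were above all DMSO samples, and its rise of 0.58 (SE 0.089, adjusted p = 0.00044 in limma) was the largest of any member. That rise became 0.18 and did not pass (adjusted p = 0.085 in limma) when scaled to the reference genes. Scaled to the reference genes, the 9 ATPases and core subunits had a median of -0.33 with 6 lower, and scaled to the upper quartile a median of 0.36 with 8 higher, against 0.08 in CPM.

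**Figure D2:**
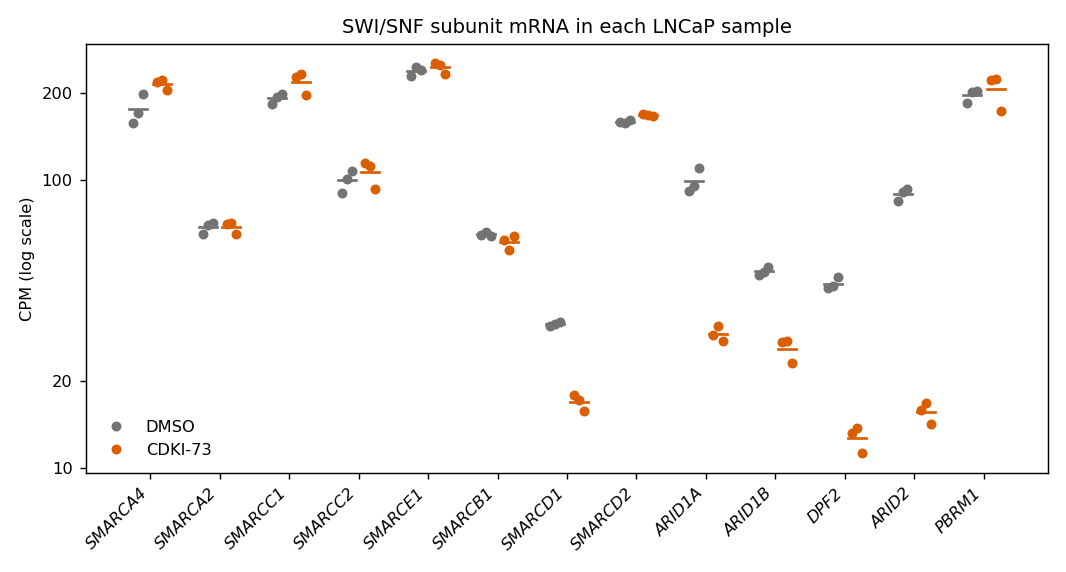
CPM of SWI/SNF subunits in each of the 6 samples, on a log10 axis, with points for samples and short lines for group means. *ARID1A*, *ARID1B* and *ARID2* separate fully between DMSO and CDKI-73, whereas *SMARCA2*, *SMARCB1* and *PBRM1* overlap.

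Of the 7 assembly-specific SWI/SNF subunits among the members, *PBRM1* alone did not pass. *ARID2*, the ARID subunit of PBAF, was at 84.56, 90.67 and 92.82 CPM in DMSO and at 15.89, 16.77 and 14.21 CPM in CDKI-73. The groups were far apart, and its log2 fold change of -2.51 (SE 0.072, adjusted p = 4.7e-08 in limma) left it 5.70-fold lower. *PBRM1*, the bromodomain subunit of the same complex, was at 185.64, 201.44 and 203.72 CPM in DMSO and 221.91, 225.06 and 173.64 CPM in CDKI-73. CDKI-73 replicate 3 was the lowest of all samples and the other CDKI-73 samples were the highest, so the groups overlapped, and the change was 0.06 (SE 0.098, 95% interval -0.16 to 0.29, adjusted p = 0.59 in limma). Without that replicate it was 0.18 (adjusted p = 0.0038 in limma), scaled to the reference genes it was -0.35 (adjusted p = 0.031 in limma), and under the other 3 scalings it was 0.26 to 0.34 (adjusted p = 0.0099 to 0.028 in limma).

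*ARID1A*, the BAF subunit most often mutated in cancer, was at 91.39, 95.35 and 110.26 CPM in DMSO and 29.00, 31.14 and 27.64 CPM in CDKI-73. No CDKI-73 sample came near the DMSO range, and it fell 3.37-fold (log2 fold change -1.75, SE 0.079, adjusted p = 2.9e-07 in limma). Its alternative *ARID1B* was at 46.86, 48.12 and 49.74 CPM in DMSO and 27.31, 27.56 and 23.15 CPM in CDKI-73. It too separated fully, with a smaller change of -0.89 (SE 0.075, adjusted p = 1.1e-05 in limma). Of the DPF subunits, which read acylated histone tails, the widely expressed *DPF2* fell from 43.7 ± 1.98 to 12.7 ± 1.31 CPM (-1.77). *DPF1*, known from neurons, fell from 3.74 ± 0.136 to 1.6 ± 0.445 CPM (-1.21), and *DPF3* from 0.830 ± 0.07 to 0.347 ± 0.0451 CPM (-1.06). *DPF3* rests on 14 to 49 reads a sample, and without CDKI-73 replicate 3 its change of -0.98 no longer reached 2-fold. Scaled to a trimmed mean of M-values, *DPF1* was at -0.99 and *DPF3* at -0.87, and scaled to the upper quartile at -0.94 and -0.83. At a pseudocount of 1 CPM they were at -0.88 and -0.44, all of these short of 2-fold.

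All 6 tested ARID genes outside SWI/SNF fell, as did 48.2% of all genes. The untested *ARID3C*, near the floor, was at 0.05, 0.17 and 0.11 CPM in DMSO. With CDKI-73 it was at 0.27, 0.33 and 0.33 CPM. *ARID4B*, a subunit of SIN3 histone deacetylase complexes, was at 118.03, 122.88 and 122.85 CPM in DMSO and 24.94, 26.40 and 24.02 CPM in CDKI-73. With no overlap it was 4.81-fold lower (log2 fold change -2.27, SE 0.051, adjusted p = 2.1e-08 in limma). *ARID5B*, which pairs with the histone demethylase PHF2, was at 61.88, 66.44 and 71.49 CPM in DMSO and 15.36, 14.16 and 16.14 CPM in CDKI-73. Its groups were likewise separate, at 4.35-fold lower (-2.12, SE 0.073, adjusted p = 8.9e-08 in limma). *ARID4A*, the retinoblastoma-binding paralog of *ARID4B*, fell from 36.1 ± 0.437 to 11 ± 1.82 CPM (-1.72). *ARID3A*, a transcription factor first known from B cells, fell from 9.54 ± 0.676 to 3.70 ± 0.303 CPM (-1.34), and *ARID5A*, also an RNA-binding protein, from 8.08 ± 0.257 to 3.21 ± 0.544 CPM (-1.32). *ARID3B* fell least, from 2.58 ± 0.16 to 1.71 ± 0.156 CPM (-0.57). All 6 stayed lower under each of 4 other scalings, with medians from -1.94 to -1.26.

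*CHD1*, which binds methylated lysine 4 of histone H3 at active genes and is recurrently deleted in prostate cancer, showed the largest fall of any member. It was at 67.18, 73.10 and 76.82 CPM in DMSO and 5.43, 5.03 and 5.42 CPM in CDKI-73. The lowest DMSO sample was far above the highest CDKI-73 sample, 7.45% of the DMSO level was left, and the log2 fold change was -3.75 (SE 0.069, 95% interval -3.91 to -3.59, adjusted p = 1.9e-08 in limma). Of all genes tested, 0.778% had a lower log2 fold change. *CHD1* lies at chr5:98853985-98929007 on the minus strand (hg38).

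Its closest relative *CHD2* was at 105 ± 9.3 CPM in DMSO and 99.7 ± 12 CPM in CDKI-73, and its change of -0.08 (95% interval -0.31 to 0.14, adjusted p = 0.46 in limma) did not pass and turned to 0.02 without CDKI-73 replicate 3. *CHD8*, which represses beta-catenin targets, was at 122.65, 132.66 and 145.09 CPM in DMSO and 35.25, 36.14 and 26.06 CPM in CDKI-73. Both groups were spread but apart, with a 4.13-fold fall (-2.05, SE 0.12, adjusted p = 1.5e-06 in limma). The other members of its subfamily fell less. *CHD9* went from 45.6 ± 2.06 to 23.0 ± 2.46 CPM (-0.99, just short of 2-fold), *CHD6* from 88.6 ± 8.91 to 53.7 ± 6.69 CPM (-0.73) and *CHD7*, the CHARGE syndrome gene, from 21.8 ± 2.16 to 13.6 ± 1.07 CPM (-0.68).

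The NuRD ATPases moved in opposite directions. *CHD4* fell from 217 ± 14.1 to 149 ± 9.4 CPM (-0.54). *CHD3* was at 270.29, 281.50 and 298.27 CPM in DMSO and 386.36, 391.63 and 353.94 CPM in CDKI-73. All CDKI-73 samples were above all DMSO samples and it rose by 0.41 (SE 0.057, adjusted p = 0.00024 in limma), which scaling to the reference genes reduced to 0.0051. The neuronal *CHD5* was at 0.807 ± 0.0586 and 0.990 ± 0.0361 CPM (0.27, adjusted p = 0.09 in limma), on 39 to 53 reads a sample.

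Of the ISWI ATPases, which space nucleosomes evenly, *SMARCA5* fell from 195 ± 9.29 to 157 ± 12.8 CPM (-0.31, adjusted p = 0.0033 in limma), a call lost under 3 of the other scalings. *SMARCA1* was hardly expressed, at 0.810 ± 0.118 and 1 ± 0.0551 CPM (0.29, adjusted p = 0.11 in limma). *SMARCAD1*, which acts in heterochromatin upkeep and DNA end resection, fell from 105 ± 1.49 to 27.4 ± 1.95 CPM (-1.94, SE 0.059, adjusted p = 5.6e-08 in limma). *SMARCAL1*, which rewinds DNA at stalled replication forks, fell from 17.3 ± 0.48 to 10.4 ± 0.43 CPM (-0.73).

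Ratios of paralogs within a sample were taken of CPM + 0.1, so that they hardly depend on the scaling between samples, except for the lowest genes such as *SMARCA1*. Of 12 paralog pairs, 10 had ratios that did not overlap between the groups, each at p = 0.1 in a two-sided exact permutation test. That is the smallest p that 3 samples against 3 allow, and it was 0.12 after adjustment over the 12 pairs, so that no pair could pass 0.05. Ratios of other gene pairs were not taken. Among all single genes tested, 50.0% were lower and 25.9% higher without overlap, so the count of 10 is not read as a trait of these pairs. The mean *ARID1A* to *ARID1B* ratio went from 2.04 to 1.13 (1.95, 1.98 and 2.21 in DMSO, 1.06, 1.13 and 1.19 in CDKI-73). These subunits exclude each other in BAF, and the ratio was lower in every CDKI-73 sample. *SMARCA2* to *SMARCA4* went from 0.392 to 0.319 and *SMARCD1* to *SMARCD2* from 0.199 to 0.101. *CHD1* to *CHD2* moved most of the 12 (plot of paralog ratios), from 0.687 to 0.0543, a 12.7-fold change. Of the other CHD pairs that did not overlap, *CHD8* to *CHD9* went from 2.92 to 1.40 and *CHD3* to *CHD4* from 1.31 to 2.53.

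The ratio also rose for *ARID4A* to *ARID4B* (0.299 to 0.435), *ARID5A* to *ARID5B* (0.123 to 0.215) and *SMARCA1* to *SMARCA5* (0.00465 to 0.00703), while *ARID3A* to *ARID3B* fell from 3.60 to 2.10. The pairs that overlapped were *SMARCC1* to *SMARCC2* (1.93 to 2.06, exact permutation p = 0.2) and *CHD6* to *CHD7* (4.04 to 3.93, exact permutation p = 1). In the latter, CDKI-73 replicate 3 was at 3.11 and the other CDKI-73 samples at 4.48 and 4.35, so that the log2 change of -0.04 became 0.13 without it.

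**Figure D3:**
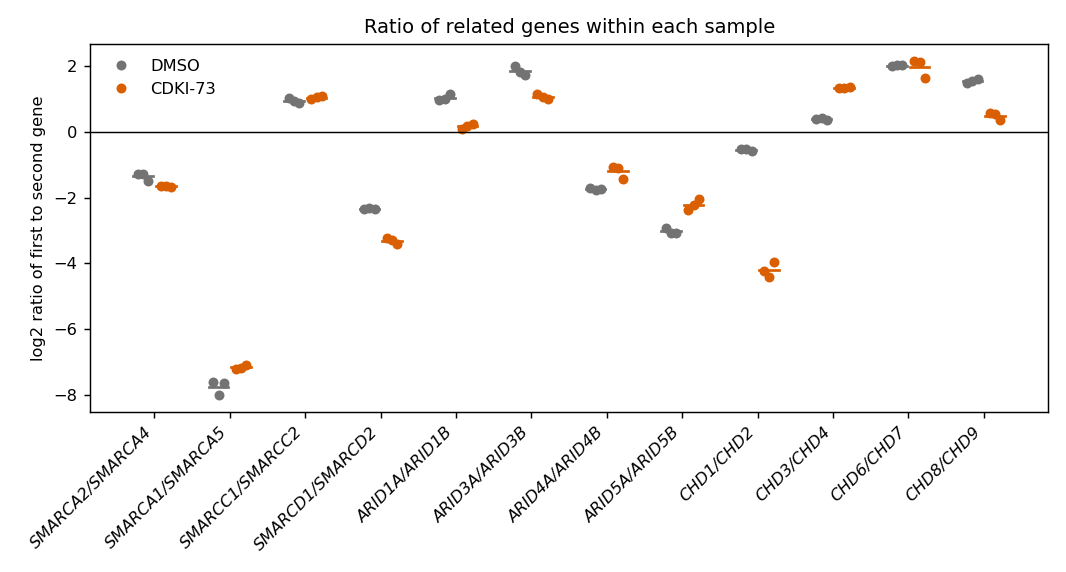
Log2 ratio of CPM + 0.1 for 12 paralog pairs in each sample, with points for samples coloured by group and short lines for group means. In 10 of 12 pairs the 3 DMSO and 3 CDKI-73 samples do not overlap, and the widest gap is that of *CHD1* to *CHD2*. Ratios of other gene pairs were not taken.

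Members were also set beside genes of like level. By the mean over all 6 samples, which a fall itself lowers, 9 of the 15 members at 20 to 100 CPM were lower by at least 2-fold (21.5% of all genes at that level) and 0 of the 10 members at 100 CPM or more (5.22% of genes). By the DMSO mean, a split added after the data were seen, these counts were 6 of 14 (25.7% of genes) and 3 of 12 (10.2% of genes), since *ARID4B*, *CHD8* and *SMARCAD1* were above 100 CPM in DMSO. Below 5 CPM 2 of 5 members were called by either mean (23.8% and 17.4% of genes). At 5 to 20 CPM 2 of 5 were called by the mean over all samples (35.1% of genes) and 2 of 4 by the DMSO mean (31.6% of genes).

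**Figure D4:**
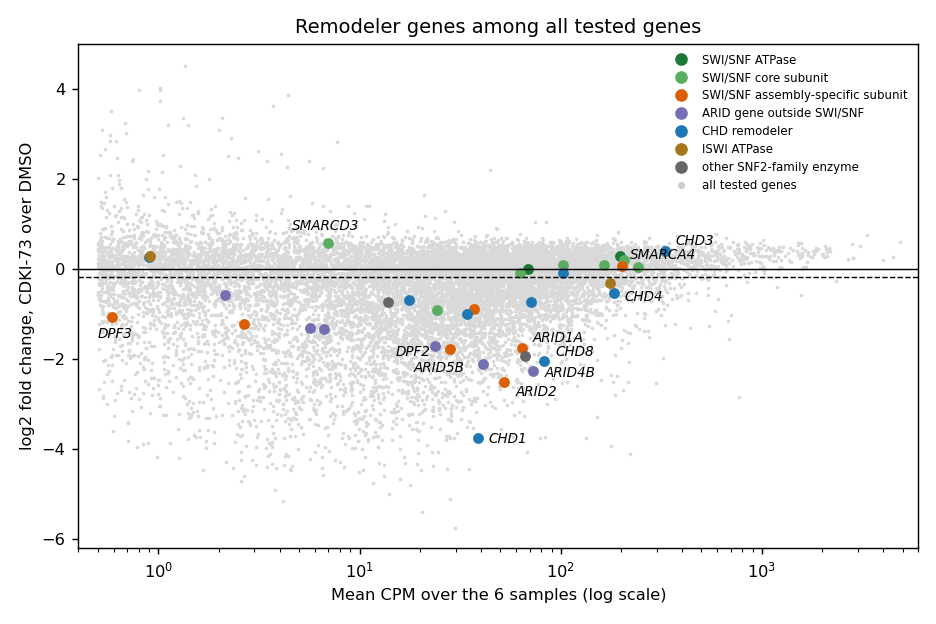
Log2 fold change against mean CPM over the 6 samples (log10 axis) for the 35 remodeler genes, coloured by role over all 13373 genes tested (grey), with the dashed line at their median of -0.18. A fall moves a gene to the left as well as down, and *CHD1* lies lowest at -3.75.

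Per kilobase of transcript (GENCODE v44 models, hg38), *SMARCD2* (64.5 CPM per kb), *SMARCE1* (46.6) and *CHD3* (38.3) led the members in DMSO. After CDKI-73 they still led, at 68.2, 47.8 and 51.0 CPM per kb. *CHD1* went from rank 20 of 35 (8.89 CPM per kb) to rank 30 (0.649), *ARID2* from rank 18 (10.4) to 26 (1.81) and *ARID1A* from rank 16 (11.5) to 20 (3.41), whereas *SMARCD3* went from rank 28 (2.91) to 16 (4.37).

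The members' changes had low correlations with gene structure. Across the 35 genes, which lie on 20 chromosomes, the log2 fold change had a Pearson r of -0.15 with the log2 length of the gene and -0.18 with that of the transcript, against 0.04 and -0.17 across 11667 tested genes with a model. For the number of exons r was 0.11 (0.24 across genes), and for the length of the 3′ UTR it was -0.14 (-0.21). By rank (Spearman) the values in the same order were -0.15, -0.19, 0.27 and -0.15, against -0.07, -0.27, 0.15 and -0.29 across genes. These are descriptions across genes of the same 6 libraries, and genes are not independent replicates. The median gene length was 75.4 kb in the 13 members lower by at least 2-fold, 73.8 kb in the other 22 and 33.1 kb over all tested genes. The median number of exons was 20, 28.5 and 9 in the same order. In 7 members other annotated genes overlap at least 10% of the transcript, on the opposite strand in *SMARCB1* (56.3%), *DPF2* (33.4%), *SMARCD3* (31.8%), *SMARCC2* (14.1%) and *SMARCA5* (11.7%) and on the same strand in *CHD4* (90.1%) and *SMARCE1* (51.5%). The authors' counting in STAR leaves out reads that fall on more than 1 gene, and the strand and annotation it used are not stated, so these values are less certain.

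Partner subunits without a member's name also moved in both directions. Of 68 tested genes on 6 lists of other remodeler subunits (70 listed), 41 were lower, 11 higher and 17 lower by at least 2-fold, with a median of -0.45. The 25% lower by at least 2-fold compare with 22.3% of all genes, and the 60.3% lower and 16.2% higher with 48.2% and 24.2%. Of 13 other SWI/SNF subunits 8 fell, the largest falls being *BCL11B* (-2.41), *BCL7A* (-1.67) and *GLTSCR1L* (-1.59). *BCL11B* met the expression threshold through its DMSO samples (1.99, 1.30 and 1.55 CPM, against 0.27, 0.19 and 0.20 CPM in CDKI-73). At a mean of at least 2 CPM, which leaves it out, 7 of 12 fell. The 3 that rose were *BCL7C* (0.41), *ACTB* and *PHF10* (0.16). *BRD9* (0.12, adjusted p = 0.058 in limma) and *ACTL6A* (-0.09) did not pass. *ACTB*, which is both a SWI/SNF subunit and a reference gene, was at 0.36 and the other reference genes at 0.55 (*GAPDH*) and 0.32 (*HPRT1*). Of 11 ISWI partners 9 fell and 0 rose, with a median of -0.87, led by *CHRAC1* (-2.40), *RSF1* (-1.46) and *BPTF* (-1.37). Of 12 NuRD partners 5 fell, among them *GATAD2B* (-1.05), *MBD2* (-0.56) and *GATAD2A* (-0.55), and 4 rose, with a median of 0.06.

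Of 20 genes of the INO80, SRCAP and EP400 remodelers, which exchange histone variants, 11 fell (55%) and 4 rose (20%), with a median of -0.32 and 15% lower by at least 2-fold, against 22.3% of all genes, the largest falls being *SRCAP* (-1.37), *INO80D* (-1.10) and *NFRKB* (-1.01). Among those that fell, *INO80B* met the expression threshold through its DMSO samples (mean 0.72 CPM, against 0.40 CPM in CDKI-73). Of 10 further SNF2-family enzymes 5 fell and 0 rose (1 rose without CDKI-73 replicate 3), led by the transcription-coupled repair gene *ERCC6* (-1.95), *RAD54L2* (-1.11) and *ZRANB3* (-0.51). Of 4 ARID-domain genes with other names 3 fell, the histone demethylase genes *KDM5B* (-1.32) and *KDM5A* (-1.12) and the Polycomb partner *JARID2* (-0.58). The other, *KDM5C* (-0.07), did not pass. Scaling moved the number that rose from 11 to 0 (reference genes) or 26 (upper quartile).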

How the data were processed

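Polyadenylated RNA of 6 LNCaP samples (3 CDKI-73, 3 DMSO) was sequenced by the authors. The deposited values are CPM per gene symbol, to 2 decimals, from reads that the authors aligned to hg38 with STAR, and the submitters' processing notes name FastQC, STAR, edgeR 3.3 and R 3.2.3. The sources used here give neither the gene annotation nor the strand setting of the counting. Titles of DMSO samples name CDKI-73 as well, so groups come from the treatment label.

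Because CPM are not counts, log2(CPM + 0.1) was compared with limma 3.58.1 in R 4.3.3 (lmFit, then eBayes with an intensity trend), without a block, over genes with a mean of at least 0.5 CPM, with Benjamini-Hochberg adjustment over all of them. Genes at an adjusted p of 0.05 or less passed, and those changed at least 2-fold were called. Standard errors and 95% intervals are those of limma on that log2 scale, which understates the change of low genes. A read was worth 0.0164 to 0.0217 CPM. Paralog ratios were compared by exact permutation tests. Python 3.11.15, pandas 2.3.3, numpy 2.4.6 and matplotlib 3.10.9 were used for joins and plots, GENCODE v44 for gene models and RefSeq for promoters. The limma step was tested on simulated data.

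Members and lists were chosen with earlier results of these data known. All members are named, and per-sample values are given for the 5 largest falls and up to 5 largest rises past the test and for *SMARCA4*, *SMARCA2*, *ARID1A*, *ARID1B*, *ARID2*, *PBRM1*, *SMARCB1* and *CHD1*. Of each other list the 3 largest changes are named. A further marker gene is not reported here. Alternatives were other pseudocounts (0.01 and 1 CPM), filters (none, and a mean of 2 CPM), 4 scalings, limma without trend or robust, a replicate block and leaving out each sample.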

Additional observations from a re-analysis of the deposited data

How the results depend on the processing

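Over 17 alternative settings, 21 of the 22 members lower at an adjusted p of 0.05 in limma stayed lower and past it wherever they were tested, *SMARCA5* being the exception (*DPF3* could not be tested at a mean of at least 2 CPM). Members lower numbered 21 to 29 and members lower by at least 2-fold 11 to 19. Members higher went from 4 to 11 (median of gene ratios), 11 (trimmed mean of M-values), 12 (upper quartile) and 0 (reference genes), and other remodeler subunits higher from 11 to 23, 26, 26 and 0. The median log2 fold change of the members, -0.73, became -0.65 at a pseudocount of 1 CPM and -0.52, -0.50, -0.45 and -1.13 under those scalings. Leaving out 1 sample gave 22 to 23 members lower, 3 to 6 higher, 12 to 14 lower and 0 higher by at least 2-fold, a median of -0.76 to -0.65, and 39 to 41 other subunits lower and 8 to 12 higher. Scaled to the reference genes, the log2 fold change reversed to -0.40 for *SMARCA2*, -0.11 for *SMARCA4*, -0.37 for *SMARCE1*, -0.33 for *SMARCD2*, -0.31 for *SMARCC2*, -0.22 for *SMARCC1*, -0.35 for *PBRM1*, -0.10 for *CHD5* and -0.08 for *SMARCA1*. Under the first 3 scalings it reversed to 0.11, 0.14 and 0.19 for *SMARCB1* and to 0.12, 0.14 and 0.19 for *CHD2*. *SMARCA2*, *SMARCE1*, *SMARCD2*, *SMARCC2*, *PBRM1*, *CHD5* and *SMARCA1* passed as higher under each of those 3. Scaled to the reference genes, *SMARCA2*, *SMARCE1*, *SMARCD2*, *SMARCC2* and *PBRM1* passed as lower (adjusted p = 0.00067 to 0.036 in limma). *CHD5* and *SMARCA1* did not pass there. Leaving out 1 sample took *SMARCA2* to between -0.03 and 0.04 (reversed at -0.01, -0.02 and -0.03 without CDKI-73 replicate 1, CDKI-73 replicate 2 and DMSO replicate 1), *PBRM1* to between -0.0034 and 0.18 (lowest without CDKI-73 replicate 2), *CHD2* to between -0.15 and 0.02, and the change of the log2 ratio of *CHD6* to *CHD7* to between -0.14 and 0.13, the last upper values without CDKI-73 replicate 3. With the replicate number as a block, 22 members were lower, 3 higher and 13 lower by at least 2-fold. The labels do not say what samples with the same number share. Their deviations had correlations of -0.29, 0.11 and -0.23, which with 3 samples a group cannot show whether they were paired. The depth limits *DPF3*, *SMARCA1* and *CHD5*, with at most 55 reads in any sample.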
